A study of Homo sapiens with 6 samples.

Results

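Transcripts of base excision repair (BER) and nucleotide excision repair (NER) were followed through 42 genes in an esophageal squamous cancer cell line and its radioresistant derivative. The genes were taken as a list by what their products do, 22 of BER and single-strand break repair and 20 of NER, out of 18665 genes that have a named probe on the array. All 42 had at least 1 probe. There were 70 such probes, 25 of the genes had 1 and 17 had more, and the probe with the highest mean intensity stood for the gene. On these arrays 40 of the 42 were bright enough to be tested among 12783 genes, and the exceptions were GTF2H2 and XPA.

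In BER a DNA glycosylase cuts out a damaged base, an endonuclease opens the strand at the abasic site that is left, a polymerase fills the gap and a ligase seals it, while PARP enzymes and the scaffold XRCC1 attend to single-strand breaks. In NER a bulky lesion is found either anywhere in the genome (XPC with RAD23B and CETN2, and DDB1 with DDB2) or where RNA polymerase has stalled (ERCC6 and ERCC8). TFIIH then unwinds the DNA, XPA checks the lesion, and the nucleases ERCC5 and ERCC1-ERCC4 cut out the damaged stretch. Ionizing radiation (IR) leaves oxidized bases and single-strand breaks, which are substrates of BER.

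TE13R, a radioresistant clone derived from TE13 by fractionated irradiation and given to the study by another laboratory, was set against the radiosensitive parental TE13. Both lines were grown in the same medium with serum and irradiated with X-rays from a linear accelerator, and total RNA was taken at 0, 8 and 24 h. There was 1 array for each line and time point, 3 of TE13R and 3 of TE13. The methods give the profiling as done in triplicate, but do not say whether an array stands for a single culture or for several. The labels tell the lines apart by title and by radiosensitivity, while their cell line field reads TE13 for all 6. No source used here gives the dose for these cultures, and TE13R is a single clone. The array labels do not say whether the 0 h cells had been irradiated, whereas the legend of a PCR assay at the same times calls the first of them prior to irradiation.

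Intensities are those deposited, on a linear scale with the background already subtracted, and the 6 arrays had been brought to a common scale, with medians of 7.95 to 7.96. A value above 20.2, which is 3 times the noise estimated from the values below 0, is called above the detection limit here, and 38 of the 42 genes passed it on all 6 arrays. The exceptions were ERCC6, GTF2H1, GTF2H2 and XPA. Differences are given as log2(intensity + 16), which understates the change of dim genes, and folds come from the same scale. Only the bounds given for ERCC6 and GTF2H1, which had values below the limit, were taken on the intensities without the 16. Tests were made in limma over all 12783 genes, with Benjamini-Hochberg adjustment, and a gene is called at an adjusted p under 0.05. The time points served as the repeats of a line and the lines as the repeats of a time point. In the fit with line and time point, the error thus holds any line difference in time course, along with variation of arrays and cultures. These parts cannot be told apart here, so a p-value does not measure how repeated cultures of a line vary. With 6 arrays each estimate is imprecise.

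The 0 h arrays of the lines resembled each other more (Spearman rho 0.895 over all probes) than either resembled the later arrays (0.819 to 0.843), and the later arrays had values of 0.832 to 0.853 among themselves. Of 13 squamous epithelial markers 10 had a probe, and all 10 were above the limit on every array, with summed intensities of 54503 to 77297 in TE13R and 49029 to 77725 in TE13. KRT14 was the only one of them called between the lines (log2 difference -2.09). Of 7 fibroblast markers none passed the limit on all arrays (sums of 22.0 to 57.6 in TE13R and 36.3 to 79.3 in TE13), with COL1A2, COL3A1, DCN and THY1 below it throughout. Of 6 measured leukocyte markers 1 did (CD68), with sums of 2280 to 4655 in TE13R and 1303 to 3292 in TE13, and PTPRC, CD3D and CD3E were below it on every array. Of 5 endothelial markers 2 did (PECAM1 and VWF), with sums of 203 to 985 in TE13R and 76.8 to 655 in TE13, and CDH5, KDR and CLDN5 were below it on every array.

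The first comparison asked which excision repair genes differed between TE13R and TE13 over the 3 time points. APTX, which encodes aprataxin, the enzyme that removes AMP from failed ligation ends, was higher in TE13R and was the only one of the 40 tested genes to be called. No gene was called lower. That is 2.5% of the 40 genes, where 5.05% of all genes tested were called, 2.61% higher and 2.45% lower. The median difference of the 40 genes was -0.01 on the log2 scale, and that of all genes tested was 0.01. At an unadjusted p under 0.05 there were 8 of the 40 genes, APTX, APEX1, PARP2, UNG, ERCC2, LIG1, GTF2H5 and LIG3. Of all 12783 genes tested, 2310 were under that threshold.

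Aprataxin transcripts had intensities of 4322, 4217 and 2760 in TE13R at 0, 8 and 24 h, against 2329, 2373 and 1267 in TE13. All 3 TE13R values lay above all 3 TE13 values. The log2 difference was 0.94 (SE 0.14), or 1.92-fold with a 95% interval of 1.53 to 2.41, and the adjusted p was 0.0124 in limma. A second, dimmer probe of APTX gave 1730, 1800 and 1190 in TE13R and 721, 1176 and 570 in TE13, with a log2 difference of 0.96. The call rested on the 8 h arrays and on the settings of the fit: the adjusted p was 0.12 without the 8 h arrays of both lines, 0.22 with no filter on dim probes, 0.0874 without a mean-variance trend, and 1 both without the time point in the model and in the methods' t-test.

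The promoters of APTX and APEX1 are shown because APTX is the gene called and APEX1, described next, had the smallest adjusted p of the others. The sequences are from RefSeq (GRCh38.p14), 120 bases that end just before the annotated start of the gene, on the strand of the gene. Capitals mark a GC box (GGGCGG), an E-box (CACGTG) or the box named by its letters CCAAT, in either direction.
APTX, chr9:33025121-33025240, minus strand: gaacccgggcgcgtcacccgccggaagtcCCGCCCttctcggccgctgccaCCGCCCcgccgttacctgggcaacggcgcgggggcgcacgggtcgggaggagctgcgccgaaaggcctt
APEX1, chr14:20455106-20455225, plus strand: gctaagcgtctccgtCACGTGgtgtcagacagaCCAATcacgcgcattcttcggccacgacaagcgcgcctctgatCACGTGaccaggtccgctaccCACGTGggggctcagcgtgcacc
The APTX stretch held 2 GC boxes in reverse and no E-box, and the APEX1 stretch held 3 E-boxes and 1 CCAAT box.

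After APTX, the 7 largest line differences by size were those of UNG, PARP2, NEIL1, ERCC2, LIG1, NEIL3 and APEX1, and none of them passed the test. APEX1, the main endonuclease at abasic sites, had intensities of 13377, 15387 and 12004 in TE13R, against 21290, 20236 and 15289 in TE13. Each TE13R value was below the TE13 value of the same time point, and the highest TE13R value passed the lowest TE13 value by a small margin. The log2 difference was -0.47 (SE 0.13, adjusted p = 0.0892 in limma), and a second probe gave -0.67. PARP2, a sensor of single-strand breaks, stood at 731, 465 and 701 in TE13R and at 1403, 737 and 891 in TE13. Its TE13R values all lay below its TE13 values, with a log2 difference of -0.64 (SE 0.18, adjusted p = 0.105 in limma) on this probe and -0.53 on its other probe.

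UNG, the glycosylase that removes uracil, measured 656, 2880 and 914 in TE13R and 1155, 3172 and 3231 in TE13. The gap was widest at 24 h, where TE13 had kept its 8 h intensity and TE13R had not, and the log2 difference over the time points was -0.91 (SE 0.28, adjusted p = 0.13 in limma). ERCC2, a helicase of TFIIH, had 226, 431 and 1156 in TE13R, against 285, 781 and 1818 in TE13 (log2 difference -0.60, SE 0.19, adjusted p = 0.13 in limma). LIG1, the ligase of long-patch BER and of replication, had 750, 1305 and 919 in TE13R, against 906, 1837 and 1860 in TE13 (log2 difference -0.59, SE 0.19, adjusted p = 0.139 in limma). Both were lower in TE13R at each time point, and both were called lower when the 0 h arrays were left out, which made 3 calls with APTX. Of all 12783 genes tested, 850 were called in that setting.

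NEIL1 and NEIL3, glycosylases for oxidized bases, differed between the lines at some time points only. NEIL1 was dim, with 33.9, 74.0 and 60.7 in TE13R and 31.9, 30.2 and 25.8 in TE13, so the lines were close at 0 h and apart at 8 h and 24 h (log2 difference 0.63, SE 0.31, adjusted p = 0.341 in limma). NEIL3 had 542, 262 and 210 in TE13R and 1396, 260 and 252 in TE13, so that nearly all of its difference was at 0 h (log2 difference -0.52, SE 0.28, adjusted p = 0.397 in limma). NEIL3 at 0 h was the only one of the 40 genes at least 2-fold apart between the lines at that time (2.5%, against 11.1% of all genes tested). At 8 h there were none, where 9.64% of all genes were, and at 24 h there were 3, or 7.5%, where 11.6% of all genes were.

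Direction was the same at all 3 time points for 18 of the 40 genes. NTHL1, NEIL1, APTX, LIG3, RAD23B, CETN2 and GTF2H5 were the 7 with higher intensities in TE13R each time. UNG, APEX1, APEX2, PARP2, LIG1, DDB2, ERCC2, ERCC3, GTF2H3, GTF2H4 and ERCC5 were the 11 with lower intensities each time. The 18 are 45.0% of the genes, where 39.5% of all genes tested kept 1 direction. With a size of at least 1.5-fold at each time point only APTX remained, 2.5% of the genes against 6.1% of all genes tested.

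Among the NER genes no line difference was called. GTF2H5, the smallest subunit of TFIIH, had 2324, 3724 and 2064 in TE13R and 1738, 2993 and 1349 in TE13, higher in TE13R at each time point (log2 difference 0.45, SE 0.14, adjusted p = 0.144 in limma). DDB1, the partner of DDB2 and the member whose probe had the highest mean intensity, had 18883, 17377 and 16530 in TE13R and 16873, 15720 and 19813 in TE13, and the order of the lines changed at 24 h. The differences of the other tested NER genes, ERCC2 aside, lay between -0.32 for ERCC5 and 0.32 for CETN2. GTF2H2 was below the limit on all arrays, and XPA passed it only in TE13R at 0 h, at 20.7.

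**Figure D1:**
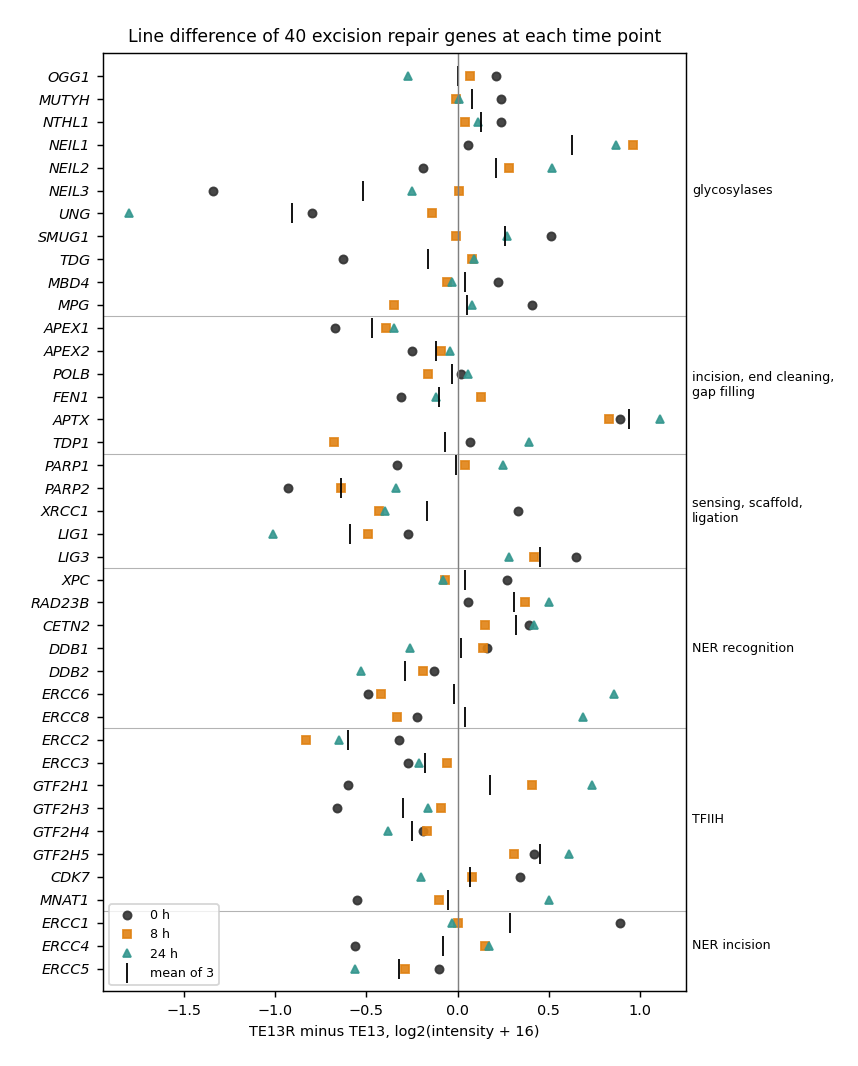
Difference between TE13R and TE13 in log2(intensity + 16) for the 40 tested excision repair genes, grouped by role from top to bottom. Each symbol is 1 pair of arrays (circle 0 h, square 8 h, triangle 24 h) and the bar is the mean of the 3; APTX is the only gene beyond 0.8 at every time point, and the mean of 39 genes lies between -0.91 and 0.63.

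The second comparison asked what changed from 0 h to 8 h and 24 h after irradiation, over both lines. No array was of unirradiated cells at 8 h or 24 h. Irradiation and time in culture or handling therefore cannot be told apart in these changes. At 8 h against 0 h, 16 of the 40 genes were called higher and 13 lower, or 72.5%. Of all genes tested 56.3% were called, 27.5% higher and 28.8% lower. At 24 h against 0 h, 16 were called higher and 12 lower, or 70.0%, where 55.6% of all genes were called, 27.8% in each direction. The median changes of the 40 genes were 0.05 at 8 h and -0.13 at 24 h on the log2 scale, and those of all genes tested were 0.09 and 0.07. Both contrasts use the same 0 h arrays, which stand apart from the rest, and RNA came from whole cultures, where fewer cells of a kind and less RNA per cell cannot be told apart. With no filter on dim probes 17 of the 42 genes were called at 8 h, where 4890 of all 18665 genes were. UNG, MPG, NEIL2, NEIL3, DDB2, ERCC6, GTF2H1, MNAT1 and ERCC1 were among those no longer called (adjusted p of 0.0516 to 0.136 in limma). The same held for NEIL3, DDB2 and GTF2H1 at 24 h (0.0661 to 0.0962). Without the 8 h array of either line fewer of the 40, and fewer of all genes, were called at 8 h.

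The lines moved the same way in most cases. The sign of the change was shared by TE13R and TE13 for 35 of the 40 genes at 8 h and for 35 at 24 h (87.5% each), where 83.9% and 83.8% of all genes tested did so. A change of at least 2-fold in both lines was seen in 17 genes at 8 h (8 up, 9 down, 42.5%, against 35.5% of all genes tested) and in 14 at 24 h (8 up, 6 down, 35%, against 31.9%). NTHL1, SMUG1, MPG and TDP1 were up and NEIL3, TDG, RAD23B, CETN2 and ERCC5 were down by that size in both lines at both times (22.5%, against 22.2% of all genes tested). In TE13R alone 50.0% of the genes changed at least 2-fold by 8 h and 37.5% by 24 h, where 43.5% and 38.5% of all genes did. In TE13 alone the shares were 52.5% and 55.0%, where those of all genes were 51.0% and 50.5%.

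Most DNA glycosylases rose. At 8 h 81.8% of them were called and at 24 h 90.9%, where 56.3% and 55.6% of all genes tested were. All genes tested had median log2 changes of 0.09 and 0.07, and 27.5% and 27.8% of them were called higher. Of the 11, 7 were called higher and 2 lower at 8 h, with a median log2 change of 1.12, and 7 were called higher and 3 lower at 24 h, with a median of 0.97. The 7 were the same at both times: OGG1 and MUTYH, which deal with 8-oxoguanine and the adenine paired with it, NTHL1 and NEIL2, which take out oxidized pyrimidines, UNG and SMUG1, which take out uracil, and MPG, which takes out alkylated purines.

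NTHL1 had 990, 2397 and 2327 in TE13R at 0, 8 and 24 h, against 834, 2336 and 2157 in TE13. Its change was 2.40-fold in TE13R and 2.77-fold in TE13 at 8 h, and the log2 change was 1.37 (SE 0.18, adjusted p = 0.000592 in limma) at 8 h and 1.29 at 24 h. SMUG1 had 1787, 3763 and 5110 in TE13R and 1254, 3785 and 4221 in TE13, with log2 changes of 1.32 (adjusted p = 0.000793 in limma) and 1.62. In each line both genes had their later values well clear of 0 h. OGG1 had 511, 1189 and 919 in TE13R and 438, 1129 and 1114 in TE13 (1.26 and 1.07 on the log2 scale), and a dimmer probe rose too, by 1.63 and 1.29. MUTYH had 1865, 2770 and 4481 in TE13R and 1572, 2794 and 4439 in TE13, a stepwise increase in both lines, and its 2 dimmer probes were also above their 0 h values on every later array.

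MPG was dim at 0 h, with 36.1, 108 and 145 in TE13R and 23.1, 141 and 137 in TE13, and its log2 changes were 1.63 and 1.80. UNG rose at 8 h, 4.31-fold in TE13R and 2.72-fold in TE13 (log2 change 1.78, SE 0.35, adjusted p = 0.00334 in limma). At 24 h the rise of UNG was 1.38-fold in TE13R and 2.77-fold in TE13, and it was called with an adjusted p of 0.0448 in limma. NEIL2 rose by 1.12 at 8 h and 0.82 at 24 h on the log2 scale. Without the TE13 array of 8 h, MPG and NEIL2 were no longer called at that time (adjusted p = 0.0652 and 0.0638 in limma), without the TE13R array of 8 h NEIL2 was not (adjusted p = 0.0840), and without the TE13 array of 24 h OGG1 was not called at 24 h (adjusted p = 0.0532).

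NEIL3, TDG and MBD4 went down. TDG, which acts on G:T mismatches and on oxidized forms of 5-methylcytosine, had 6374, 2585 and 1510 in TE13R and 9898, 2451 and 1415 in TE13. It fell 2.46-fold in TE13R and 4.02-fold in TE13 by 8 h, and the log2 change was -1.65 (SE 0.22, adjusted p = 0.000639 in limma) at 8 h and -2.43 at 24 h. A second probe of TDG did not share this fall, as described with the other probes. NEIL3, whose per-array values are given above, changed by -1.68 and -1.85 on the log2 scale, 2.01-fold lower in TE13R and 5.12-fold lower in TE13 at 8 h, and was not called at 8 h without the TE13 array of 8 h (adjusted p = 0.0691 in limma). MBD4, which also acts on G:T mismatches, had 1249, 843 and 484 in TE13R and 1072, 878 and 494 in TE13, and was called at 24 h only (-1.22, adjusted p = 0.00194 in limma). NEIL1 was called at neither time.

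The 6 genes of abasic site incision, end cleaning and gap filling were divided. TDP1, which frees topoisomerase I from DNA ends, had the largest change of all 40 genes, with 261, 2778 and 1905 in TE13R and 247, 4455 and 1447 in TE13. That is 10.1-fold in TE13R and 17.0-fold in TE13 at 8 h, and the log2 change was 3.71 (SE 0.27, adjusted p = 0.000215 in limma) at 8 h and 2.64 at 24 h. The other 2 probes of TDP1 went the opposite way, so the rise belongs to 1 probe and its direction depends on the probe. With the mean of the probes the log2 change of TDP1 was 0.67 at 8 h (adjusted p = 0.0931 in limma) and turned to -0.43 at 24 h (adjusted p = 0.257).

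APEX2, a second abasic endonuclease, rose by 1.06 at 8 h and 0.54 at 24 h on the log2 scale. POLB, the gap-filling polymerase of short-patch BER, was called lower at 8 h (-0.47, adjusted p = 0.0454 in limma) and was at its 0 h level again at 24 h (0.01). FEN1, the flap endonuclease of long-patch BER, had 6722, 8034 and 4087 in TE13R and 8357, 7331 and 4436 in TE13, and was called lower at 24 h only (-0.81, adjusted p = 0.00503 in limma). APTX was likewise called lower at 24 h only (-0.76, adjusted p = 0.00715 in limma). APEX1 was called at neither time, with log2 changes of 0.06 and -0.32.

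Of the 5 genes for break sensing, scaffold and ligation, 2 were called higher and 2 lower at 8 h, and 3 higher and none lower at 24 h. That left 1 not called at 8 h and 2 not called at 24 h, where 56.3% and 55.6% of all genes tested were called. Of all genes tested 27.5% were called higher and 28.8% lower at 8 h, and 27.8% each way at 24 h. With 5 genes these counts do not set the list apart from all genes. XRCC1, the scaffold, had 467, 583 and 1102 in TE13R and 369, 790 and 1462 in TE13, with log2 changes of 0.69 (adjusted p = 0.0485 in limma) and 1.58 (adjusted p = 0.00161). LIG1 rose by 0.90 and 0.66, and LIG3, the partner of XRCC1, by 0.64 at 24 h, with intensities of 438, 498 and 607 in TE13R and 274, 369 and 498 in TE13. The poly(ADP-ribose) polymerases moved the other way at 8 h, PARP1 by -0.60 (adjusted p = 0.026 in limma) and PARP2 by -0.77 (adjusted p = 0.0192), and neither was called at 24 h.

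Among the damage recognition genes of NER more fell than rose. Of the 7, 1 was called higher and 4 lower at 8 h, with a median log2 change of -1.04. At 24 h 1 was called higher and 3 lower, with a median of -0.57. That is 71.4% and 57.1% called, where 56.3% and 55.6% of all genes tested were. Of all genes tested 27.5% were called higher and 28.8% lower at 8 h, and 27.8% each way at 24 h. CETN2, a centrin that stabilizes the XPC complex, had 9876, 2329 and 3034 in TE13R, against 7541, 2104 and 2271 in TE13. The log2 change was -1.96 (SE 0.17, adjusted p = 0.000236 in limma) at 8 h and -1.71 at 24 h. RAD23B, the other partner of XPC, had 2062, 631 and 624 in TE13R and 1980, 485 and 438 in TE13, with changes of -1.84 (SE 0.21, adjusted p = 0.000384 in limma) and -1.92. For both genes every later array of a line was at least 3.21-fold below that line's 0 h array.

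XPC itself, the lesion sensor, changed by -1.04 at 8 h (adjusted p = 0.00302 in limma) and by -0.57 at 24 h, and was not called at 8 h without the TE13R array of 8 h (adjusted p = 0.0676). DDB2, the damage sensor that UV lesions need and a known target of p53, was the recognition gene that rose. It was dim, with 35.2, 108 and 83.9 in TE13R and 40.2, 126 and 129 in TE13, and the log2 changes were 1.31 (adjusted p = 0.0092 in limma) and 1.16 (adjusted p = 0.0156). The call of DDB2 at 8 h was lost without the 0 h or the 8 h array of TE13 or the 8 h array of TE13R (adjusted p = 0.0504, 0.0602 and 0.0792 in limma), and at 24 h without the 0 h or the 24 h array of TE13 (adjusted p = 0.0811 and 0.114). DDB1 and ERCC8 were called at neither time.

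ERCC6, the ATPase that engages stalled RNA polymerase, was above the detection limit only at 0 h, at 23.5 in TE13R and 39.5 in TE13. At 8 h its values were -6.02 in TE13R and 5.36 in TE13, and at 24 h 13.0 in TE13R and -2.89 in TE13. It was thus at least 1.51-fold lower at 8 h than at 0 h (adjusted p = 0.0342 in limma), from the intensities without the 16 and with the limit in place of the dim values, as in the other bounds here. With an offset of 1 in place of 16 the 8 h call was lost (adjusted p = 0.112). The same bound held at 24 h, where it was not called. Leaving out any of the 0 h or 8 h arrays ended the 8 h call (adjusted p of 0.0538 to 0.255 in limma).

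The subunits of TFIIH went both ways. Of 8 tested, 3 were called higher and 3 lower at 8 h, and 2 higher and 3 lower at 24 h. That is 75.0% and 62.5% called, where 56.3% and 55.6% of all genes tested were. All genes tested went both ways too, with 27.5% called higher and 28.8% lower at 8 h, and 27.8% each way at 24 h. ERCC2, one of the helicases, had log2 changes of 1.15 (adjusted p = 0.0036 in limma) at 8 h and 2.44 (SE 0.23, adjusted p = 0.00055) at 24 h, when it stood 4.85-fold above 0 h in TE13R and 6.09-fold in TE13. The other helicase, ERCC3, was called lower at 24 h (-0.87, adjusted p = 0.00603 in limma). GTF2H4, a core subunit, had 2927, 6356 and 5329 in TE13R and 3347, 7158 and 6962 in TE13, with log2 changes of 1.10 (adjusted p = 0.000888 in limma) and 0.96. GTF2H3, another core subunit, had 775, 275 and 420 in TE13R and 1230, 295 and 470 in TE13, with changes of -1.72 (adjusted p = 0.000796 in limma) and -1.11. So ERCC2 and GTF2H4 were up while ERCC3 and GTF2H3 were down at 24 h in both lines. Without the TE13 array of 8 h, ERCC2 was not called at 8 h (adjusted p = 0.0910).

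GTF2H1, also of the core, was dim: 59.8, 15.0 and 23.4 in TE13R and 98.6, 7.36 and 7.63 in TE13. At 8 h it was at least 3.81-fold lower than at 0 h in intensity, or 3.46-fold on the scale with 16 added (adjusted p = 0.008 in limma), and at 24 h only the TE13R array was above the limit. The 8 h call was lost without the TE13 array of 0 h or of 8 h (adjusted p = 0.106 and 0.0584 in limma), and the 24 h call without that of 0 h or of 24 h (adjusted p = 0.169 and 0.0877). GTF2H5 was called higher at 8 h (0.73, adjusted p = 0.00887 in limma) and not at 24 h. In the kinase module of TFIIH, MNAT1 had 191, 85.1 and 214 in TE13R and 287, 92.5 and 146 in TE13, and was called lower at 8 h only (-1.26, adjusted p = 0.0136 in limma). That call was lost without the 8 h array of either line or the 0 h array of TE13 (adjusted p of 0.0814 to 0.103 in limma). CDK7, the kinase, was called at neither time.

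The genes of the NER nucleases did not all move together. ERCC1, the partner of ERCC4 on the side upstream of the lesion, had 1885, 3550 and 5099 in TE13R and 1010, 3543 and 5198 in TE13. The rise was stepwise in both lines, with log2 changes of 1.35 (SE 0.25, adjusted p = 0.00246 in limma) at 8 h and 1.89 (adjusted p = 0.000813) at 24 h, and its 3 other probes had changes of 1.15 to 1.94 at 8 h and 1.58 to 2.06 at 24 h. ERCC5, which cuts on the other side, had 1850, 420 and 559 in TE13R and 1986, 518 and 830 in TE13. It was 4.29-fold lower in TE13R and 3.75-fold lower in TE13 at 8 h, and the log2 change was -2.00 (SE 0.21, adjusted p = 0.000309 in limma) at 8 h and -1.47 (adjusted p = 0.00107) at 24 h. ERCC4, the catalytic partner of ERCC1, was close to the limit (24.1 to 60.1 over the 6 arrays) and was not called.

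**Figure D2:**
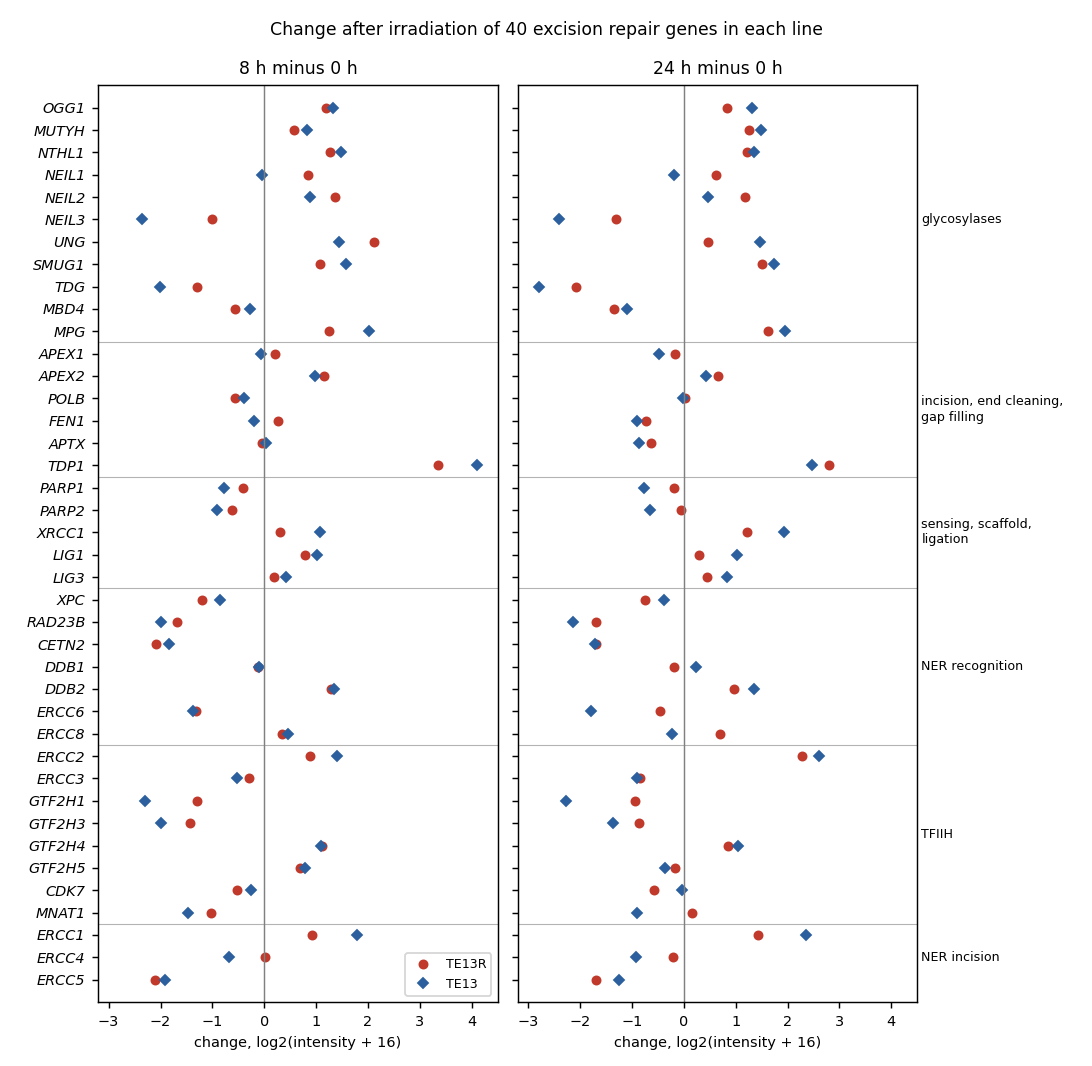
Change in log2(intensity + 16) from the 0 h array of the same line at 8 h (left) and 24 h (right) for the 40 tested genes, in the same order by role, with TE13R as circles and TE13 as diamonds (1 pair of arrays per symbol). Symbols of the same gene mostly lie on the same side of 0; TDP1, on its brightest probe, is the farthest right, and TDG, CETN2, RAD23B and ERCC5 are among the farthest left.

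**Figure D3:**
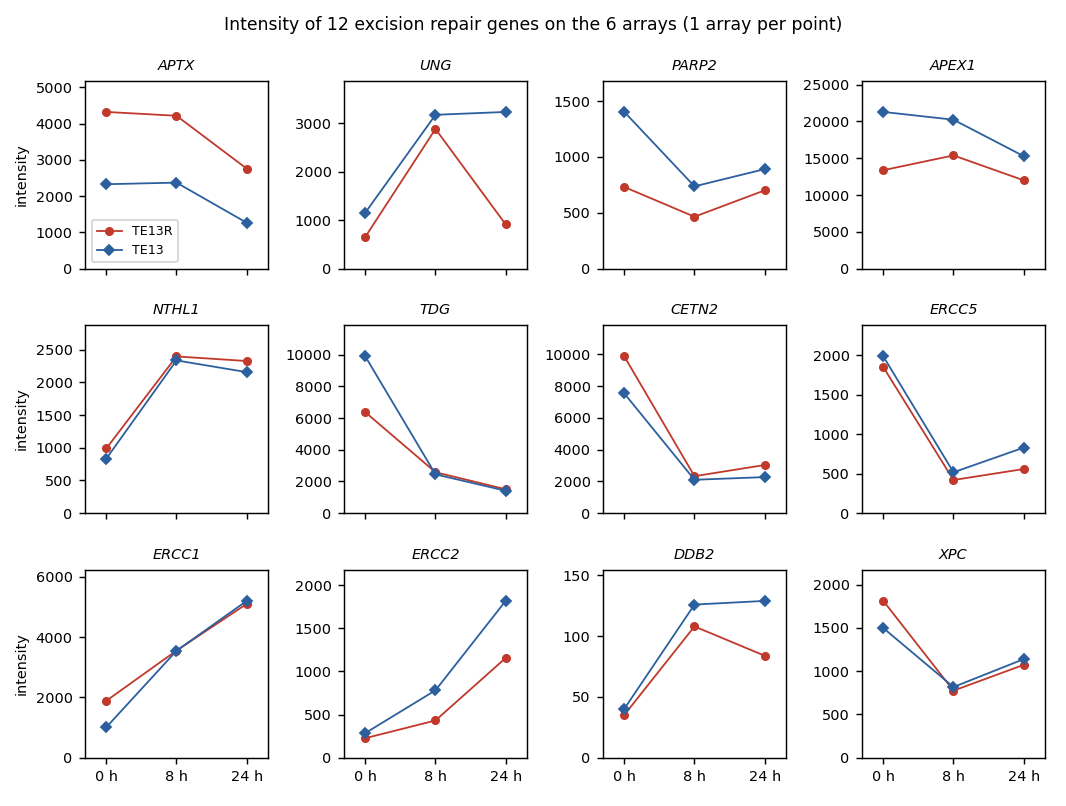
Deposited intensity (linear axis from 0, its own range in each panel) of 12 genes at 0, 8 and 24 h in TE13R (circles) and TE13 (diamonds), 1 array per point with no error bars. APTX is higher and PARP2 and APEX1 are lower in TE13R at each time, whereas NTHL1, ERCC1, CETN2, ERCC5 and XPC move in the same direction in both lines between 0 h and the later times.

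Promoters of 4 genes with large changes over time are shown from the same RefSeq table, TDP1 and ERCC2 for those that rose and TDG and CETN2 for those that fell. Capitals mark the same motifs as before and, in TDP1, a match to the NRF1 site.
TDP1, chr14:89955807-89955926, plus strand: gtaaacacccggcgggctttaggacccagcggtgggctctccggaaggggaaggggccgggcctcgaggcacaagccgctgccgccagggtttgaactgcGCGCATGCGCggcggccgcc
ERCC2, chr19:45370574-45370693, minus strand: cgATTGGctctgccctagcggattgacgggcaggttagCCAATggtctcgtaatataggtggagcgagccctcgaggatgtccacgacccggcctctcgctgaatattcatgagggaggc
TDG, chr12:103965752-103965871, plus strand: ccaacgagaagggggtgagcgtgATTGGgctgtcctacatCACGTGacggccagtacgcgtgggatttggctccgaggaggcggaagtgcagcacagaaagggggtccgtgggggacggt
CETN2, chrX:152830758-152830877, minus strand: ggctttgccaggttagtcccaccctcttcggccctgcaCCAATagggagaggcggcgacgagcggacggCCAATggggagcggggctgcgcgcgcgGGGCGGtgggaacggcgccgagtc
ERCC2 and CETN2, which moved in opposite directions, each held 2 CCAAT boxes in this stretch.

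Promoters were found for 39 of the 42 genes (not for SMUG1, POLB and NEIL2), and 7 motifs were looked for on both strands of the 250 bases before the start: the GC box, the CCAAT box, the E-box, the CRE (TGACGTCA), the YY1 site (AAGATGGCG), an ETS site (CCGGAAGTG) and the NRF1 site in the letters capitalized in TDP1. None of these strings contains another. The E-box was in 9 of the 39 promoters, or 23.1%, where 8.72% of 10389 promoters of tested genes and 6.49% of all 27305 had it. The 9 were those of NTHL1, TDG, MPG, APEX1, FEN1, LIG3, ERCC6, GTF2H1 and CDK7, which rose, fell or were not called. The GC box was in 66.7% (63.4% of tested genes) and the CCAAT box in 38.5% (35.3%). Among the genes called at 8 h, a CCAAT box was in 8 of 14 promoters of those that rose and in 4 of 12 of those that fell. NEIL3 and TDP1 had an NRF1 site, NTHL1 and GTF2H3 an ETS site, PARP2 a CRE and none a YY1 site. A match says only that the letters are there.

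From 8 h to 24 h fewer genes differed. At 24 h against 8 h, 2 of the 40 were called higher (ERCC2 and MUTYH) and 5 lower (TDP1, GTF2H5, FEN1, MBD4 and APTX), or 17.5%, where 12.9% of all genes tested were called, 7.67% higher and 5.23% lower. The 0 h arrays do not enter the difference itself but do enter its error. ERCC2 rose further, by 1.30 (SE 0.23, adjusted p = 0.0165 in limma), and was the only one of the 40 to change at least 2-fold in both lines (2.5%, against 9.11% of all genes tested). GTF2H5 changed by -0.99 (adjusted p = 0.0165 in limma), FEN1 by -0.85 (adjusted p = 0.0224), MBD4 by -0.79 (adjusted p = 0.0437), APTX by -0.75 (adjusted p = 0.0324) and TDP1, on its brightest probe, by -1.08 (adjusted p = 0.0407). In each line 3 of the genes changed at least 2-fold from 8 h (7.5%), where 18.1% of all genes did so in TE13R and 18.0% in TE13. The number of calls was unstable. With no filter, without the trend or without the line in the model none of the 40 was called. Of all genes 0, 475 and 0 were called in these settings. Without an 8 h or a 24 h array of either line fewer of the 40, and fewer of all genes, were called. Without a 0 h array of either line more of the 40, and more of all genes, were.

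Whether the change from 0 h differed between the lines was tested with 8 h and 24 h taken as 1 level, since a separate term for each time would leave no residual. None of the 40 genes was called, and 0% of all genes tested were. At an unadjusted p under 0.05 there were 153 genes, none of them among the 40. The largest estimates were those of NEIL3 (1.22, SE 0.59) and GTF2H1 (1.17, SE 0.69), whose falls were smaller in TE13R than in TE13 without passing this test. In this test a gene that changes between 8 h and 24 h counts as noise.

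Probes of the same gene did not always move together. TDP1 had 3. The brightest rose as described, the next had 150, 96.2 and 39.9 in TE13R and 212, 164 and 54.1 in TE13, and the dimmest had 61.9, 8.83 and 1.47 in TE13R and 94.5, 44.7 and 4.22 in TE13. These 2 dimmer probes fell in each line, by log2 changes of -0.45 and -1.26 at 8 h and of -1.63 and -2.30 at 24 h, against 3.71 and 2.64 for the brightest. Which transcripts each probe reads was not analysed here.

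The second probe of TDG had 1126, 1057 and 852 in TE13R and 760, 1340 and 870 in TE13, with log2 changes of 0.36 at 8 h and -0.10 at 24 h, against -1.65 and -2.43 for the brightest. LIG3 differed between the lines by 0.45 on its brightest probe and by -0.05 on its next. The 8 h change of LIG3 was 0.30 on the brightest probe and 1.07 on the next, and its 24 h change 0.64 and 0.83. DDB1 had a line difference of 0.02 on its brightest probe and of -0.29, -0.56 and 0.88 on the dimmer ones, of which the last was above the limit on 4 of the 6 arrays, and its 24 h changes were 0.02 on the brightest and -0.60 and -1.88 on its 2 dimmest. By contrast, the probes of APTX, PARP2, APEX1 and ERCC1 gave line differences of the same sign within each gene.

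**Figure D4:**
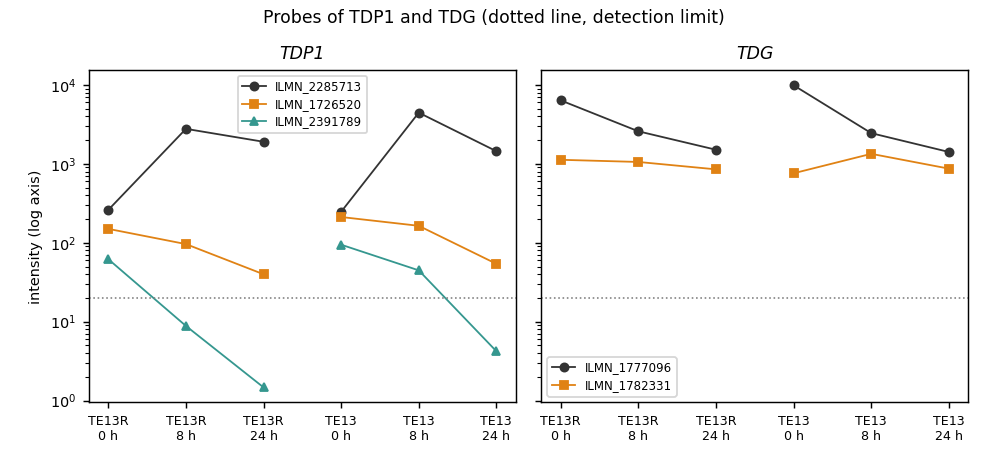
Intensity (log axis) of each probe of TDP1 (left) and TDG (right) on the 6 arrays, TE13R at 0, 8 and 24 h and then TE13, with the detection limit of 20.2 as a dotted line. The brightest TDP1 probe rises after 0 h in both lines while its other 2 fall, and the brightest TDG probe falls while its other stays between 760 and 1340.

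Other genes of the pathways were read as lists of their own, and none of these genes was called between the lines. Of 8 tested genes that act beside the BER members, 3 were called higher and 2 lower at 8 h and 5 higher and 2 lower at 24 h. NUDT1, which cleans oxidized nucleotides from the pool, had 2897, 9182 and 9059 in TE13R and 1486, 8788 and 6043 in TE13, and changed by 2.11 at 8 h. PARG, which removes poly(ADP-ribose), was above the limit on the 0 h arrays only, at 159 in TE13R and 277 in TE13. Like ERCC6, it passed the filter only through these and the 24 h array of TE13R. Of 13 further NER genes, 3 were called higher and 7 lower at 8 h and 3 higher and 8 lower at 24 h. TCEA1, an elongation factor, changed by -3.44 at 8 h, and CUL4B and CUL4A, the cullins of DDB1 ligases, by -1.84 and -1.75. XAB2, an XPA binding protein, changed by 1.62 at 24 h. The shares called were 62.5% and 87.5% of the BER genes and 76.9% and 84.6% of the NER genes at 8 h and 24 h, where 56.3% and 55.6% of all genes tested were.

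The 13 polymerase and clamp loader genes of repair synthesis had 5 called higher and 7 lower at both times. POLD3 (-2.03 at 8 h) and POLD4 (3.03 at 24 h), both subunits of polymerase delta, were among them. The share called was 92.3% at each time, where 56.3% and 55.6% of all genes tested were called. Of 3 genes that reverse damage directly, MGMT rose by 1.69 and ALKBH2 by 1.74 at 8 h, and ALKBH3 was not called. Several of the genes that fell also serve replication, and the proliferation list moved with time too: of 18 genes 3 were called higher and 10 lower at 8 h and 4 higher and 12 lower at 24 h, or 72.2% and 88.9%, with summed intensities of 112807, 85739 and 76685 in TE13R and 177778, 83612 and 78247 in TE13. MCM6, of the replicative helicase, changed by -2.31 and TOP2A, a topoisomerase of dividing cells, by -2.21 at 8 h. Of 14 tested p53 targets 6 were called higher and 3 lower at 8 h and 6 higher and 2 lower at 24 h, or 64.3% and 57.1%, where 56.3% and 55.6% of all genes tested were called. RRM2B, a ribonucleotide reductase subunit, was above the limit at 0 h, at 222 in TE13R and 257 in TE13, and below it in both lines at 8 h. PPM1D, a phosphatase, changed by -2.19 and BAX, which promotes apoptosis, by 2.16 at 8 h, and at 24 h GDF15 changed by 3.76 and SESN2 by 2.75. The part of proliferation or p53 activity in the repair genes' changes was not tested.

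Gene length moved with the change in the whole data set. Over 12773 genes the genomic span and the 8 h change had a Spearman rho of -0.39, and at 24 h it was -0.35. Over the 40 repair genes rho was -0.22 at 8 h and -0.14 at 24 h. The genes share the same 6 arrays, so these are descriptions. The 16 repair genes called higher at 8 h had a median span of 22.8 kb and the 13 called lower one of 33.5 kb, where the medians of all genes called were 13.3 kb and 50.3 kb.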

How the data were processed

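The authors hybridised biotin-labelled cRNA to 1-colour Illumina Human-6 V3 arrays, collected the data in BeadStudio and deposited 1 linear intensity per probe and array. The background had been subtracted and the arrays put on a common scale before deposit, by a method and software version not given in the sources used here. Neither detection p-values nor bead-level errors were used here, so the DiffScore of the methods was not computed. Samples of KY170 were not analysed here.

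Of 48803 probes, 27578 had 1 gene symbol in the platform annotation, 13 had several and 21212 had none; 27541 were found by Entrez identifier in RefSeq, which changed 0 symbols. Negative intensities were raised to 0, and log2 of the intensity plus 16 was used. A probe passed if it ranked in the top 50% of the array on 3 or more arrays (24765 did), and the brightest probe stood for each gene.

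limma 3.58.1 in R 4.3.3 was fitted over 12783 genes with line and time point as terms (lmFit, eBayes with a trend, 2 residual degrees of freedom and 5.75 from the prior) and Benjamini-Hochberg adjustment. The interaction of line and irradiation took 8 h and 24 h as 1 level. Bounds put 20.2 in place of lower values. The fit was tested on simulated data with line differences and no time effects, for TE13R minus TE13 only. Of differences set at 1 on the log2 scale 56% were called, and of those set at 2 98% were. Of 190 calls 13 were false. The time contrasts and the interaction were not simulated.

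The genes and lists were chosen with earlier results of these data known. Per-array values are given for genes called between the lines and the 8 largest differences there, for genes at least 2-fold changed the same way in both lines, for up to 6 called between 24 h and 8 h, for genes whose probes disagree by at least 0.5, and for the brightest member. From the other lists up to 3 called genes are named per contrast. XPC in the plot of levels was added after its values were seen.

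Alternatives were offsets of 1 and 64, quantile normalization, median centring, no filter and a stricter one (upper 35%), the average of a gene's probes, no trend, no time point or no line in the model, the methods' t-test, leaving out a time point, and, chosen after seeing the data, leaving out each array.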

Additional observations from a re-analysis of the deposited data

Results flagged for a closer look

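NEIL1 was singled out because both later arrays of TE13R lay above the 0 h array of that line and both later arrays of TE13 lay below the 0 h array of theirs. In TE13R the log2 change was 0.85 at 8 h and 0.62 at 24 h, and in TE13 it was -0.05 at 8 h and -0.19 at 24 h. The interaction of line and irradiation for NEIL1 was 0.86 (adjusted p = 1 in limma), so the difference between the lines did not pass the test. The probe of NEIL1 was dim, between 25.8 and 74.0 over the 6 arrays, with the detection limit at 20.2.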

How the results depend on the processing

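Of the values given for single genes and medians, 589 alternative values were counted as the same. A further 55 kept the direction and lost the call, 1 moved and 1 turned. For single genes the same means that direction and side of the threshold were kept. For medians of a line alone it means within 1 SD of the main value, whatever the sign. That SD comes from the medians of the lines being judged, so it grows with the distance between them. For these medians the label therefore cannot show stability. The median 8 h change, 0.05 over both lines, was -0.06 in TE13 alone and still counted as the same. The single gene that turned was TDP1 at 24 h, -0.43 with the mean of its probes. The line comparison, with 1 of the 40 genes and 646 of all genes called, gave 0 of the 40 with no filter on dim probes (0 of all genes, 2270 at an unadjusted p under 0.05), without the mean-variance trend (174 of all genes), without the time point in the model (17) and in the methods' t-test after adjustment (1 of all genes; 517 genes and 0 of the 40 at an unadjusted p under 0.05). Leaving out a time point gave 0 to 3 of the 40 and 142 to 850 of all genes. At 8 h against 0 h, where 29 of the 40 were called, 17 of the 42 were with no filter, 24 to 29 of those tested under the other alternatives on all 6 arrays, and leaving out 1 array gave 14 to 28 of the 40 and 4340 to 7421 of all genes. At 24 h against 0 h, 4445 of all genes were called with no filter in place of 7111, and leaving out 1 array gave 19 to 27 of the 40 and 5182 to 7131 of all genes. At 24 h against 8 h, where 7 of the 40 and 1648 of all genes were called, 0 and 0 were with no filter, 0 and 475 without the trend, and 0 and 0 without the line in the model (2859 genes at an unadjusted p under 0.05), and leaving out 1 array gave 0 to 16 of the 40 and 0 to 3447 of all genes. In the interaction, 0 genes were called under each alternative run, with 65 to 1159 genes at an unadjusted p under 0.05. The labels carry no replicate number, and the time point in the model pairs the lines. The cause of these changes was not tested. Dim signal over background limits ERCC6, GTF2H1, XPA and GTF2H2 most.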
